A study of Mus musculus with 6 samples.

Results

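The 81 genes that encode proteins of the cytosolic ribosome were described in RNA from cultured mouse cerebellar granule neurons with and without a hairpin against Kdm6b. They were chosen by name alone from the 23366 genes of the count table. A gene was included when its name was Rpl or Rps followed by a number, with or without a closing a, x or y and a digit, and Rpsa, Rplp0, Rplp1, Rplp2, Rps27l, Rpl22l1 and Fau were added. Entries marked as pseudogenes and the Rps6k kinases were left out. Of the 81 genes, 47 belong to the large subunit and 34, Fau among them, to the small subunit. All 81 had a transcript in the GENCODE M21 annotation, and 1 of them, Rps4y2, is a transcribed pseudogene (Rps4l) in RefSeq.

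The cytosolic ribosome joins a small subunit, which reads the mRNA, to a large subunit, which forms the peptide bond. Each of its proteins is needed in a fixed ratio to the others, and the genes are transcribed at high levels in growing and synthesizing cells. Their mRNAs typically begin with a C followed by a run of pyrimidines, the terminal oligopyrimidine tract, through which mTOR signalling sets how strongly they are translated. A few ribosomal proteins have paralogs that can take their place, among them Rpl22l1 for Rpl22 and Rps27l for Rps27.

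The neurons came from the cerebella of C57BL/6 mice on postnatal day 7 and were cultured in medium with B27 and serum. On day 1 in vitro all cultures were infected with lentivirus. In 3 of them (control) the virus carried pLKO.1 with no insert, and in the other 3 (knockdown) it carried a Kdm6b short hairpin RNA in that vector. The Kdm6b protein removes methyl groups from lysine 27 of histone H3, and the comparison asked how the transcriptome differs when Kdm6b is lowered. The labels give the sequence of 1 hairpin, and the control vector held no hairpin. Some cultures were given BDNF, and which of them these were is unknown here. The design text calls the libraries biological replicates without saying whether they came from separate litters or cultures, and p-values therefore reflect only how much these samples vary. In bulk RNA, fewer cells of a type and less RNA per cell cannot be told apart.

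Gene counts were 72150433, 50326298 and 56488433 in control replicates 1 to 3 and 88214069, 53776650 and 64514879 in knockdown replicates 1 to 3. Replicate 1 was thus the deepest library of each arm, and each knockdown was deeper than the control of the same number. The part of depth in the levels below was not tested. Levels below are CPM, counts scaled to the library's gene counts and TMM factor. Kdm6b was at 257, 146 and 170 CPM in control replicates 1 to 3 and at 88.8, 63.3 and 79.8 CPM in knockdown replicates 1 to 3, so the groups did not overlap. All 12 granule neuron markers listed for the label check were detected in every library. Across genes, deviations from the group means were positively correlated between libraries of equal replicate number. Results are therefore given from an edgeR fit with a block for the replicate number beside those from the fit without it. That block called Kdm6b (edgeR, adjusted p = 0.0282), and the fit without it did not (adjusted p = 0.216).

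Sequences around the start sites are shown because the pyrimidine run at the 5′ end is the feature these mRNAs are known for. They are from the RefSeq promoter table (build GRCm38.p6), which held 60 of the 81 genes. Each run of 30 bases holds 10 bases before the annotated start and 20 from the start on, and capitals mark a C followed by at least 4 bases that are each C or T, where such a run starts within 5 bases of the annotated start. Only the transcribed strand was searched, and a match is a description of the letters, not of a mapped 5′ end. The genes shown are those below the test threshold with the block that the table holds, followed by 5 genes with small differences or paralogs. The 6 genes below the threshold lie at chr2:32961702-32961731 (Rpl12, plus strand), chr3:28805498-28805527 (Rpl22l1, plus strand), chr17:24720053-24720082 (Rps2, plus strand), chr10:23787190-23787219 (Rps12, minus strand), chr9:120127756-120127785 (Rpsa, plus strand) and chr7:24884582-24884611 (Rps19, plus strand). The other 5 lie at chr19:6057937-6057966 (Fau, plus strand), chr4:86857348-86857377 (Rps6, minus strand), chr11:114668570-114668599 (Rpl38, plus strand), chr9:66946076-66946105 (Rps27l, plus strand) and chr4:152325716-152325745 (Rpl22, plus strand).
Rpl12: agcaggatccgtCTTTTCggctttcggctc
Rpl22l1: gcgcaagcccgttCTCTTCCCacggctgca
Rps2: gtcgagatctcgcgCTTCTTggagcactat
Rps12: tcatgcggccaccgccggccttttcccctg
Rpsa: ttatttaaggacgtcatttccggccgcccg
Rps19: aatctcgcgagactcgacgcccgacttgtg
Fau: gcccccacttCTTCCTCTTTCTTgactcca
Rps6: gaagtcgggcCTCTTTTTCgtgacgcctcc
Rpl38: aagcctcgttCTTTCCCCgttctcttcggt
Rps27l: cctccccgccgCCTCTatcccggaagttgc
Rpl22: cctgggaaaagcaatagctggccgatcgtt

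A C at the annotated start followed by at least 4 pyrimidines was present in 14 of the 60 genes (23.3%), as in Fau, Rps6 and Rpl38 above. The share was 3.01% of all 27025 genes in the table. The base before the start was not checked, and in Fau, Rps6 and Rpl38 it is also a C or T. A run counted from a C within 5 bases of the annotated start was present in 30 of the 60 (50.0%), against 19.7% of all genes. Rpl12, Rpl22l1 and Rps2 held a run that begins 3 to 5 bases into the transcript, and in Rps12, Rpsa, Rps19 and Rpl22 none begins within 5 bases of the annotated start. In Rps12 such a run begins further into the printed bases. The RefSeq start lay 78 bases from that of the GENCODE transcript in Rpsa, 120 bases in Rps12, 127 bases in Rpl22, 153 bases in Rpl12 and 221 bases in Rps19, and at most 45 bases in the other 6 genes shown, so which bases are read depends on the annotation taken.

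The summed level of the ribosomal protein genes was below the control in all 3 replicate pairs. It was 17258, 25232 and 26432 CPM in control replicates 1 to 3 and 15564, 20202 and 20718 CPM in knockdown replicates 1 to 3. As a share of all gene counts these were 1.74%, 2.51% and 2.46% in the controls and 1.58%, 2.02% and 2.19% in the knockdowns. The groups overlapped, because replicate 1 was the lowest library of both arms and control 1 lay below knockdowns 2 and 3. The mean share was 2.23% ± 0.430 (SD, n = 3) in the controls and 1.93% ± 0.318 (SD, n = 3) in the knockdowns, a difference of -0.301 percentage points that is smaller than the spread between replicates of either arm. Without knockdown replicate 1 the difference was -0.124 points, and without control replicate 1 it was -0.548 points.

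Gene by gene, 80 of the 81 genes had enough counts to be tested, and 76 of the 80 (95%) had a fitted log2 fold change below 0, against 47.5% of all 15731 genes tested. The median log2 fold change of the 80 was -0.25, against 0.02 for all genes tested. In the fit without the block, no ribosomal protein gene passed the edgeR threshold in either direction, and 0.00636% of all genes did, 1 gene in all. At an unadjusted p under 0.05 that fit counted 0 of the 80, against 10.6% of all genes, DESeq2 counted 1 (Rpl17), against 13.6%, and limma-voom 0, against 10.4%. After adjustment DESeq2 and limma-voom also called none of them, against 3.61% and 0.00636% of all genes. With the block, 7 of the 80 (8.75%) fell and 0 rose, where 5.4% of all genes tested fell and 2.58% rose. The count of called genes is therefore not far above the share over all genes. At an unadjusted p under 0.05 the same fit put 42 of the 80 (52.5%) on the lower side, against 18.2% of all genes. It put 0 on the higher side, against 15.8%. The 80 genes varied together over the same 6 libraries, with replicate 1 lowest in both arms for 75 of them. These counts are therefore not counts of separate observations. Leaving out a pair ended most of the 7 calls. The blocked fit called 0 ribosomal protein genes without replicate 1, 0 without replicate 2 and 2 without replicate 3 (Rpl12 and Rps12), while over the whole table it called 0, 53 and 1272 genes. Over all alternatives run with the block, the log2 fold changes of the 7 kept their sign, from -0.63 to -0.54 in Rpl12, -0.63 to -0.53 in Rpl22l1 and -0.35 to -0.26 in Rps19, for example. With RLE factors in place of TMM the block called 11, all 7 among them.

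**Figure D1:**
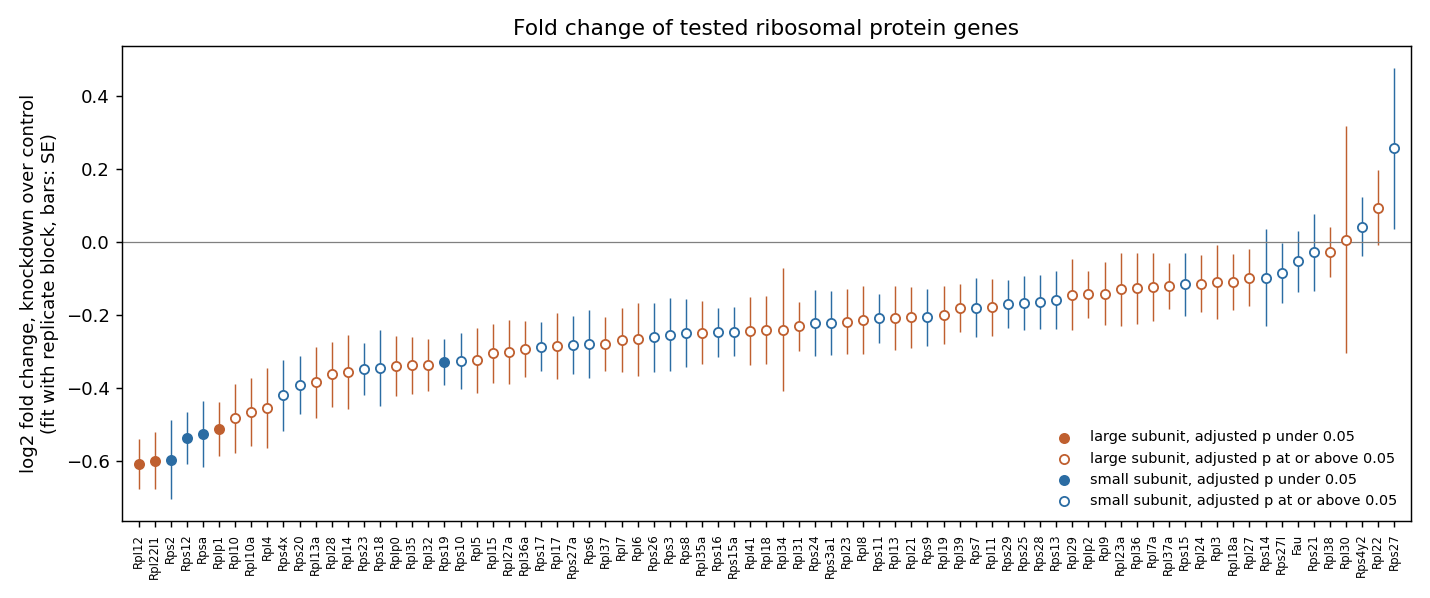
Log2 fold change of knockdown over control from the edgeR fit with the replicate block for tested ribosomal protein genes, ordered by value, with bars of 1 SE on each side and filled points for an adjusted p under 0.05. All but 4 genes sit below 0, and the 7 filled points, 3 of the large and 4 of the small subunit, include the 6 lowest.

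The pairs showed the same direction to different degrees. The median log2 difference between knockdown and control over the 80 genes was -0.14 in pair 1, -0.25 in pair 2 and -0.31 in pair 3, while over all genes tested it was 0.01, -0.00 and 0.03. In pair 1, 69 of the 80 genes were lower in the knockdown, in pair 2 it was 70 and in pair 3 it was 78. A lower level in all 3 pairs was seen in 63 of the 80 genes (78.75%), against 28.6% of all genes tested. This count too is over genes that vary together. A higher level in all 3 pairs was seen only in Rps27, which had few counts, against 31.7% of all genes. Complete separation of the groups was rare: only Rpl17 had all 3 knockdowns below all 3 controls (1 of 80, against 7.44% of all genes), and only Rps27 had them above (1 of 80, against 9.21%).

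The replicates within an arm differed more than the arms did. Replicate 1 was the lowest of the 3 controls for 77 of the 80 genes and the lowest of the 3 knockdowns for 76, and it was the lowest in both arms for 75 (93.75%), against 28.2% of all genes tested. Over the 77 genes that averaged at least 5 CPM, the mean of replicates 2 and 3 exceeded replicate 1 by a median of 0.46 on the log2 scale, with a range from -0.23 in Fau to 1.03 in Rplp1. That is larger than the median difference between the arms. The genes with the greater difference between replicates also tended to show the more negative difference between arms (Spearman -0.49, Pearson -0.61, a description across 77 genes measured in the same 6 libraries). Rps27l departed from this order, with a difference between replicates of 1.01 and a difference between arms of -0.08.

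**Figure D2:**
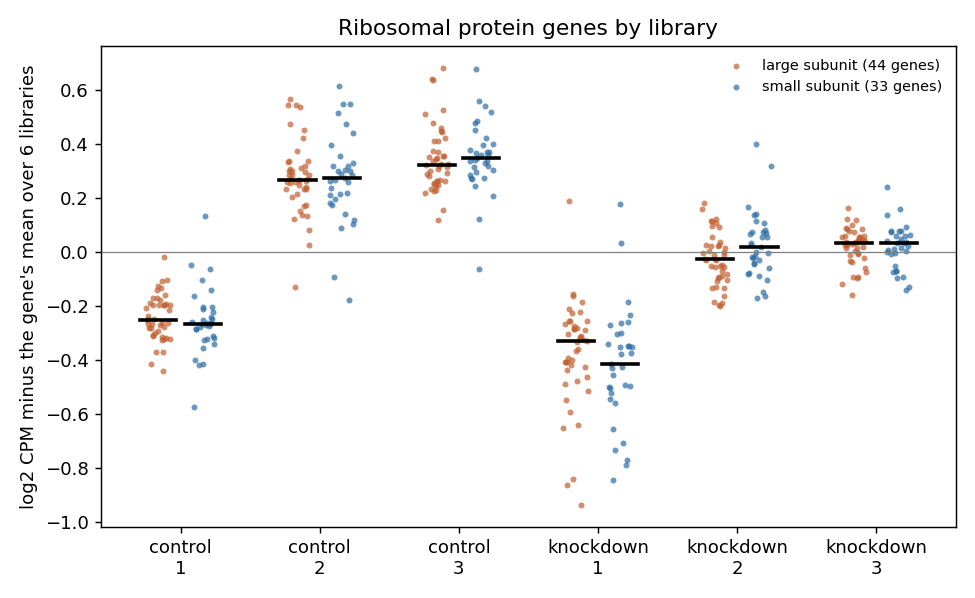
Log2 CPM of each ribosomal protein gene that averaged at least 5 CPM, minus that gene's mean over the 6 libraries, in each library, with black lines at the medians of each subunit. Replicate 1 of both arms sits below the others, and knockdown replicates 2 and 3 sit below control replicates 2 and 3.

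**Figure D3:**
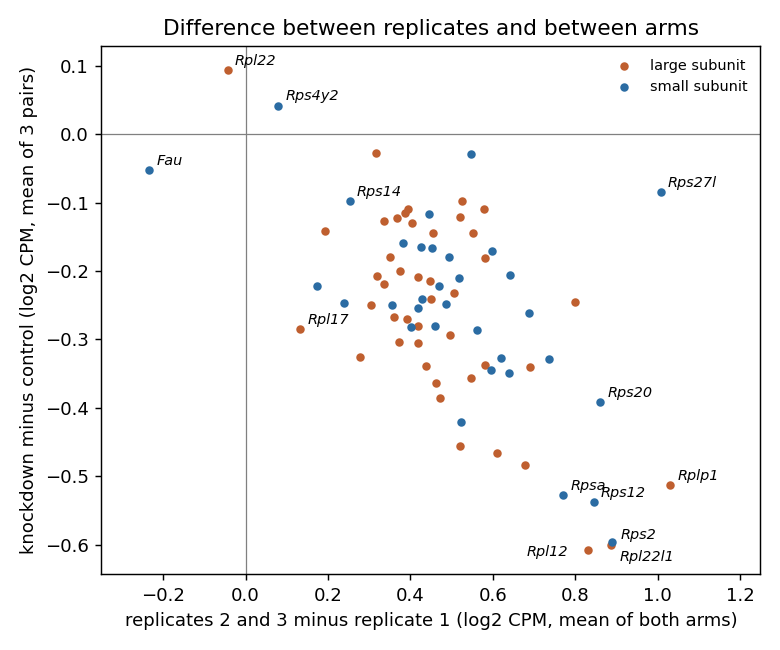
Each point is a ribosomal protein gene that averaged at least 5 CPM. The horizontal axis gives the log2 difference of replicates 2 and 3 from replicate 1, averaged over both arms, and the vertical axis the log2 difference of knockdown from control, averaged over 3 pairs. Rpl12, Rps2, Rpl22l1, Rplp1, Rps12 and Rpsa sit at the lower right, and Rpl22, Rps4y2 and Fau at the upper left.

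The large and small subunits had like fold changes. The median log2 fold change was -0.25 over the 46 tested large subunit genes and -0.25 over the 34 small subunit genes, and with the block -0.24 for each. By pair, the medians were -0.14, -0.30 and -0.31 for the large subunit and -0.14, -0.22 and -0.32 for the small subunit. The counts of the small subunit per count of the large subunit were 0.684, 0.698 and 0.709 in the controls and 0.661, 0.701 and 0.687 in the knockdowns. The ratio overlapped between the arms, with means of 0.697 ± 0.0124 and 0.683 ± 0.0203 (SD, n = 3 each). With the block, 3 of the 46 large subunit genes and 4 of the 34 small subunit genes fell.

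Among the core proteins of the large subunit, Rpl12, which sits at the base of the stalk that recruits elongation factors, differed most. It was at 212, 373 and 398 CPM in the controls, against 143, 244 and 255 CPM in the knockdowns. The knockdown was lower in each pair by a like amount, and control 1 was the 1 control inside the range of the knockdowns. The log2 fold change was -0.61 ± 0.0683 (SE) with the block (edgeR, adjusted p = 0.0282) and -0.61 ± 0.320 without it (adjusted p = 0.540). Rpl10, which joins the subunit late and completes its maturation, was at 286, 501 and 467 CPM in the controls, against 220, 313 and 354 CPM in the knockdowns, and lay just outside the threshold with the block (-0.48, edgeR adjusted p = 0.0502). Rpl4, whose extension lines the exit tunnel for the new peptide, was at 525, 846 and 817 CPM against 437, 531 and 605 CPM (-0.46, edgeR adjusted p = 0.0662). In both genes control 1 lay within the range of the knockdowns and controls 2 and 3 above it.

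Rpl5 and Rpl11, which bind the 5S RNA and can hold back the p53 ligase Mdm2 when assembly is disturbed, did not pass the test. Rpl5 was at 348, 441 and 479 CPM in the controls, against 311, 334 and 359 CPM in the knockdowns. Rpl11 was at 234, 294 and 336 CPM in the controls, against 221, 263 and 274 CPM in the knockdowns. In both, control 1 was within the range of the knockdowns and controls 2 and 3 were above it. The log2 fold changes with the block were -0.32 ± 0.0888 and -0.18 ± 0.0781 (SE, edgeR adjusted p = 0.0810 and 0.180). Rpl17, part of the wall of the exit tunnel, separated the arms with 273, 304 and 342 CPM in the controls, against 247, 256 and 247 CPM in the knockdowns. Its spread among the knockdowns was small and its adjusted p was 0.489 without the block and 0.107 with it (edgeR). Rpl38, a small protein with a role in translating Hox mRNAs in the embryo, was at 111, 143 and 146 CPM against 116, 140 and 135 CPM, with a log2 fold change of -0.03 that turned positive in several alternative settings.

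The stalk itself is made of Rplp0, which anchors it to the subunit, and the acidic proteins Rplp1 and Rplp2, and the 3 genes differed to unequal degrees. Rplp1 was at 286, 575 and 605 CPM in the controls, against 203, 389 and 434 CPM in the knockdowns, and it fell with the block (-0.51 ± 0.0744, edgeR adjusted p = 0.0351). Control 1 lay below knockdowns 2 and 3, and the other controls were above every knockdown. Rplp0 was at 523, 880 and 872 CPM against 435, 682 and 667 CPM (-0.34 ± 0.0833, adjusted p = 0.0683), lower in every pair. Rplp2 was at 148, 222 and 222 CPM against 138, 200 and 196 CPM (-0.14 ± 0.0651, adjusted p = 0.191), also lower in every pair. Whether the 3 fold changes differ from each other was not tested.

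In the small subunit, Rps2, which lies at the entrance of the mRNA channel, was at 494, 999 and 1042 CPM in the controls, against 378, 580 and 679 CPM in the knockdowns. Its log2 fold change was -0.60 ± 0.110 with the block (edgeR adjusted p = 0.0459) and -0.63 ± 0.354 without it (adjusted p = 0.563). Pair 1 differed by -0.39, pair 2 by -0.79 and pair 3 by -0.62 on the log2 scale, so the size varied between pairs while the direction did not. Rpsa, which is also known as a laminin-binding protein, was at 413, 756 and 761 CPM against 316, 485 and 518 CPM (-0.53 ± 0.0899, adjusted p = 0.0427 with the block). Rps12 was at 193, 344 and 342 CPM against 131, 228 and 248 CPM (-0.54 ± 0.0707, adjusted p = 0.0319). In Rps2, Rpsa and Rps12, control 1 again sat among the knockdowns, and controls 2 and 3 were above every knockdown.

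Rps19, needed for maturation of the 18S RNA and mutated in Diamond-Blackfan anaemia, showed a smaller but even difference. It was at 132, 218 and 221 CPM in the controls, against 105, 175 and 174 CPM in the knockdowns, and the pairs differed by -0.33, -0.31 and -0.34 on the log2 scale. It passed the threshold with the block by a narrow margin (-0.33 ± 0.0627, edgeR adjusted p = 0.0486), and missed it in that fit with upper-quartile factors (adjusted p = 0.0521) and with library totals alone (adjusted p = 0.103). Rps4x, the X-linked form of Rps4, was at 334, 534 and 494 CPM against 274, 347 and 387 CPM (-0.42, adjusted p = 0.0629). Rps6, the substrate of S6 kinase downstream of mTOR, was at 307, 459 and 472 CPM against 288, 348 and 371 CPM (-0.28, adjusted p = 0.116). Rps4x and Rps6 were lower in the knockdown in every pair, with the smallest difference in pair 1. Rps21, in contrast, was at 109, 144 and 163 CPM against 102, 169 and 140 CPM, higher in the knockdown in pair 2 alone (-0.03, adjusted p = 0.869).

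Of the 2 genes taken by the name rule that encode a ribosomal protein fused to ubiquitin or a ubiquitin-like protein, Rps27a was lower in every pair and Fau was not. Rps27a was at 241, 318 and 343 CPM in the controls, against 208, 273 and 257 CPM in the knockdowns (-0.28 ± 0.0803 with the block, edgeR adjusted p = 0.0870). Fau, which encodes Rps30 behind a ubiquitin-like protein, was at 216, 175 and 215 CPM against 223, 176 and 184 CPM (-0.05 ± 0.0837, adjusted p = 0.687). Replicate 1 of Fau was not low in either arm, unlike that of 75 of the 80 genes. The pair differences of Fau were 0.05, 0.02 and -0.22 on the log2 scale, and its sign turned with library totals alone.

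**Figure D4:**
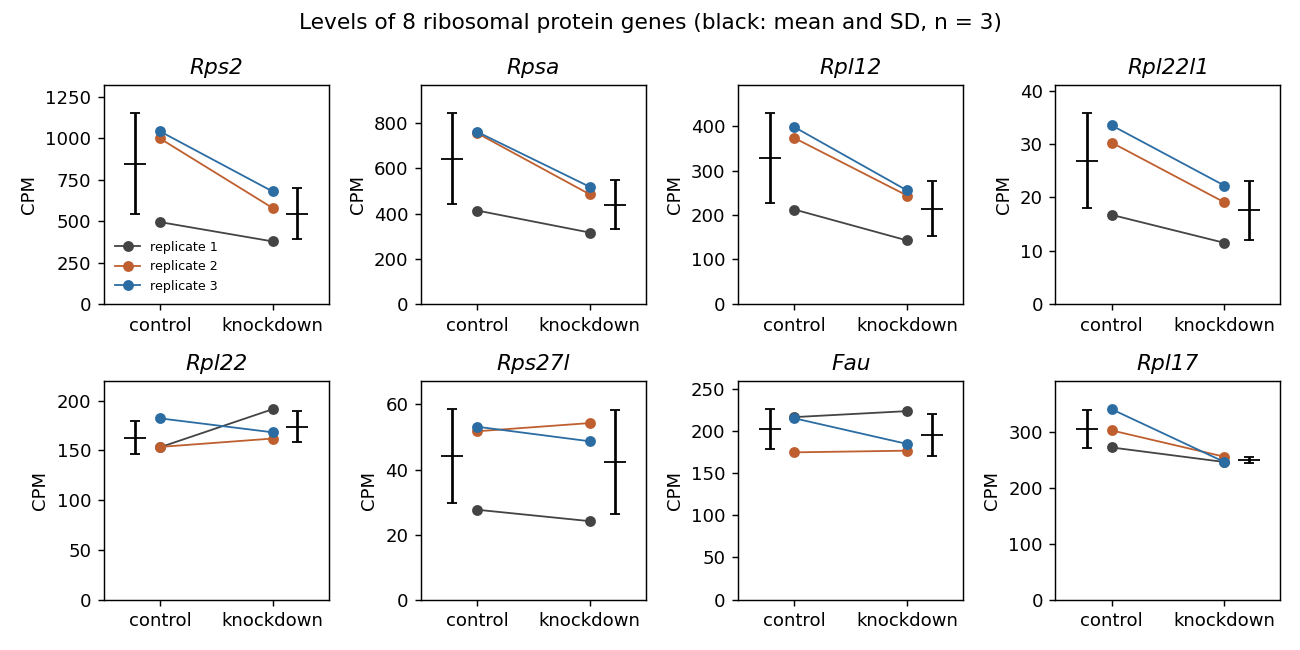
CPM of 8 ribosomal protein genes in control and knockdown, with a line for each replicate number and black bars for the mean and SD of each arm (n = 3). All 3 lines fall in Rps2, Rpsa, Rpl12, Rpl22l1 and Rpl17, while the lines of Rpl22, Rps27l and Fau differ in direction.

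The paralogs Rpl22 and Rpl22l1 had log2 fold changes of opposite sign. Rpl22l1, which can stand in for Rpl22 in the ribosome, was at 16.7, 30.3 and 33.5 CPM in the controls, against 11.5, 19.1 and 22.2 CPM in the knockdowns, and it fell with the block (-0.60 ± 0.0786, edgeR adjusted p = 0.0319). Rpl22 was at 153, 153 and 182 CPM against 191, 162 and 168 CPM, higher in pairs 1 and 2 and lower in pair 3 (0.09 ± 0.103, adjusted p = 0.550). Knockdown 1, the lowest knockdown for 76 of the 80 genes, was the highest library for Rpl22.

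Rpl22l1 made up 9.85%, 16.5% and 15.6% of the counts of both genes in the controls and 5.66%, 10.6% and 11.7% in the knockdowns. The 95% Wilson intervals, which cover counting error only, ran from 9.34% to 10.4% in control 1 and from 15.7% to 17.3% in control 2, so these replicates differed by more than counting error. The mean share was 14.0% ± 3.59 in the controls and 9.30% ± 3.20 in the knockdowns (SD, n = 3 each), a difference of -4.66 percentage points, lower in 3 of 3 pairs. An exact two-sided permutation test over libraries gave p = 0.3 (smallest possible 0.1), and an exact sign-flip test over the 3 pairs gave its smallest possible p of 0.25. Neither design can reach 0.05. Per kilobase of transcript, Rpl22 stood at 344 ± 35.2 CPM in the controls and Rpl22l1 at 51.2 ± 17.0 CPM (SD, n = 3).

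Rps27l, a paralog of Rps27 that p53 induces, showed no difference larger than its spread. It was at 27.6, 51.8 and 53.1 CPM in the controls, against 24.1, 54.3 and 48.7 CPM in the knockdowns (-0.08 ± 0.0822 with the block, edgeR adjusted p = 0.505). Replicate 1 was at about the same low level in both arms, and the other 4 libraries lay close together. The main gene of the pair, Rps27, held only 77, 51 and 44 counts in the controls and 104, 61 and 81 counts in the knockdowns, about 1 CPM (0.973 ± 0.118 and 1.16 ± 0.0267 CPM, SD, n = 3), with a log2 fold change of 0.25 (adjusted p = 0.766 without the block).

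The share of Rps27l in the counts of Rps27l and Rps27 was 96.3%, 98.1% and 98.4% in the controls and 95.4%, 98.0% and 97.6% in the knockdowns. It was lower in the knockdown in 3 of 3 pairs, with differences of -0.903, -0.110 and -0.824 percentage points (exact sign-flip test, p = 0.25, the smallest possible). The difference of the means was -0.612 points (exact two-sided permutation p = 0.5, smallest possible 0.1), and it turned to 0.183 points without knockdown replicate 1. That share is of assignable reads: of the 50-base windows of the Rps27 transcript, 98.6% also occur in transcripts of other genes, against 22.4% for Rps27l. Among 20 listed p53 target genes, 4 rose and 0 fell with the block, where 2.58% of all genes rose, and their median log2 fold change was 0.15. Among the 4 were Btg2, which slows proliferation (0.60, edgeR adjusted p = 0.0319), the kinase gene Plk3 (0.57, adjusted p = 0.0321) and Bbc3, which encodes the pro-apoptotic protein Puma (0.54, adjusted p = 0.0338). Cdkn1a and Mdm2 were not (-0.22 and 0.15, edgeR adjusted p = 0.389 and 0.223), and Rps27l was not on the list.

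Levels could be compared between genes only per kilobase of a chosen transcript, and on that scale the median over the 80 tested genes was 342 CPM, with 325 for the large and 360 for the small subunit. Over the mean of all 6 libraries Rplp1 stood highest, at 979 ± 353 CPM per kilobase in the controls and 685 ± 246 in the knockdowns. Rps2 followed at 847 ± 305 and 547 ± 154, then Rps24 at 676 ± 75.4 and 578 ± 34.2, and Rpl13 at 622 ± 125 and 534 ± 66.6 (SD, n = 3 each). Rps24 joins Rps19 among the genes mutated in Diamond-Blackfan anaemia, and Rpl13 is a core protein of the large subunit. These neighbours in the order did not differ beyond their spread, and the order was not the same in every library. In replicate 1 of both arms Rps24 stood above the other 3, at 604 CPM per kilobase in control 1 (573 for Rplp1) and 548 in knockdown 1 (406 for Rplp1). On the CPM scale, Rps24 was at 313, 348 and 391 in the controls and 284, 319 and 296 in the knockdowns, and Rpl13 at 374, 526 and 556 against 359, 429 and 461, both lower in every pair and neither past the test (edgeR with the block, adjusted p = 0.161 and 0.171).

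At the other end, a few ribosomal protein genes were close to absent from the counts. Rpl26 had 0 counts in all 6 libraries, which allows up to 3 counts, or 0.0335 to 0.0600 CPM, per library. Rpl30 had 54 to 96 counts and Rpl34 129 to 152 counts per library, and with Rps27 they were the only tested members under 5 CPM per kilobase. Rpl30 was at 1.05, 1.18 and 1.03 CPM against 0.693, 1.78 and 1.04 CPM, and Rpl34 at 1.80, 2.88 and 2.61 CPM against 1.54, 2.39 and 2.22 CPM. The proteins of these 4 genes are core parts of the ribosome. Of their 50-base windows, 71.3% in Rpl26, 76.4% in Rpl30, 50.6% in Rpl34 and 98.6% in Rps27 also occur in transcripts of other genes. Shares above 90% were also seen in members with high counts, such as Rpl10 (92.1%, mean 357 CPM) and Rps12 (90.1%, mean 248 CPM). Over the 80 tested genes, the shared percent and the mean CPM per kilobase had a Spearman correlation of 0.27. The part of shared sequence in the counts of these 4 genes was not tested. Rps15a was next at 34.7 CPM per kilobase because its chosen transcript is 5130 bases long, while its CPM of 169, 201 and 210 against 148, 172 and 168 was like that of other members. Rps20 was also low on that scale (68.6 CPM per kilobase, mean 254 CPM), with a chosen transcript of 3706 bases. The order and the medians per kilobase therefore depend on the transcripts chosen. Rps4y2, listed as a pseudogene, was at 33.2, 40.3 and 35.0 CPM against 37.5, 41.1 and 33.2 CPM (0.04, edgeR adjusted p = 0.732 with the block).

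Sequence shared with other genes was common. Over the 81 genes, the median share of 50-base windows that also occur in a transcript of another gene was 56.8%, up to 98.6% in Rps27, and 6 genes had at least 90%. Windows were matched on either strand, and genes that overlap a member at its own locus were counted as other genes. A shared window therefore need not mean a read with several alignments. In Rpl5, which overlaps Fam69a on the opposite strand, 93.8% of windows were shared, and 42.4% were shared with a pseudogene. The deposited table sets reads with several alignments apart in a tally of their own (up to 19.3% of all counts). Whether any of them were also counted to genes was not given in the sources used here, and the levels of these genes are therefore uncertain. Across the 77 genes of at least 5 CPM, the shared percent and the log2 fold change had a Spearman correlation of -0.16, a description over genes of the same libraries. In GENCODE M21 the exons of 11 of the genes overlap a gene on the opposite strand (Rpl12 with Lrsam1 and Rpl22l1 with Gm33051 among them) and 4 overlap one on the same strand. Whether reads of such partners were kept apart from those of the member is unknown. The kit marks strand, but the setting used to count was not given in the sources used here. A separate tally held ambiguous reads (0.406% to 0.509% of all counts).

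Genes with and without a pyrimidine run at the annotated start had close medians in the knockdown. Taking for each gene the annotated start nearest its GENCODE transcript, 28 tested genes had a run within 5 bases of the start, with a median log2 fold change of -0.27 and 3 genes that fell with the block (Rpl12, Rpl22l1 and Rps2). Another 31 had no run there, with a median of -0.25 and 3 that fell (Rps12, Rps19 and Rpsa). Of all genes tested, 5.4% fell with the block. The remaining 21 were not in the promoter table, and Rplp1 was the gene among them that fell. The groups rest on annotated starts, and the RefSeq start lay 891 bases from the GENCODE start in Rps15a and 493 bases in Rpl35, for example. A gene placed without a run may hold one at its actual 5′ end. The comparison therefore cannot show whether the tract bears on the difference.

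The other genes of the translation machinery were read from lists, with 5.4% of all genes falling and 2.58% rising with the block as the background. Of 21 genes for elongation factors and other mRNAs with a pyrimidine tract, 2 fell and 0 rose, with a median log2 fold change of -0.17. These were Eef1b2, a nucleotide exchange factor of elongation factor 1A (161, 262 and 268 CPM against 124, 205 and 194 CPM; -0.40, edgeR adjusted p = 0.0428), and Gnb2l1, which encodes the 40S-bound scaffold Rack1 (333, 569 and 589 CPM against 264, 412 and 388 CPM; -0.47, adjusted p = 0.0470). Like the ribosomal protein genes, both were low in replicate 1 of each arm. Of 54 ribosome biogenesis factors, 1 fell (Utp20, -0.57) and 0 rose, with a median of -0.06.

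The rest of the machinery had medians on the other side of 0. None of 29 initiation factors and none of 19 genes of RNA polymerase I transcription passed the test with the block, with medians of 0.02 and 0.09. Of 76 mitochondrial ribosomal proteins, 1 fell (Mrps24, -0.68) and 0 rose, with a median of 0.07 and a summed level of 1625 to 1798 CPM in the controls and 1730 to 1894 CPM in the knockdowns. Among 23 regulators of mTOR and pyrimidine-tract mRNAs, Eif4ebp1, which holds back cap-dependent translation, fell (28.9, 54.8 and 49.2 CPM against 14.1, 23.7 and 28.9 CPM; -1.01, adjusted p = 0.0282). Mycn, a driver of progenitor growth and of ribosome synthesis, rose (41.2, 18.0 and 23.9 CPM against 92.0, 77.5 and 52.1 CPM; 1.46, adjusted p = 0.0376). The list's median was 0.09.

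**Figure D5:**
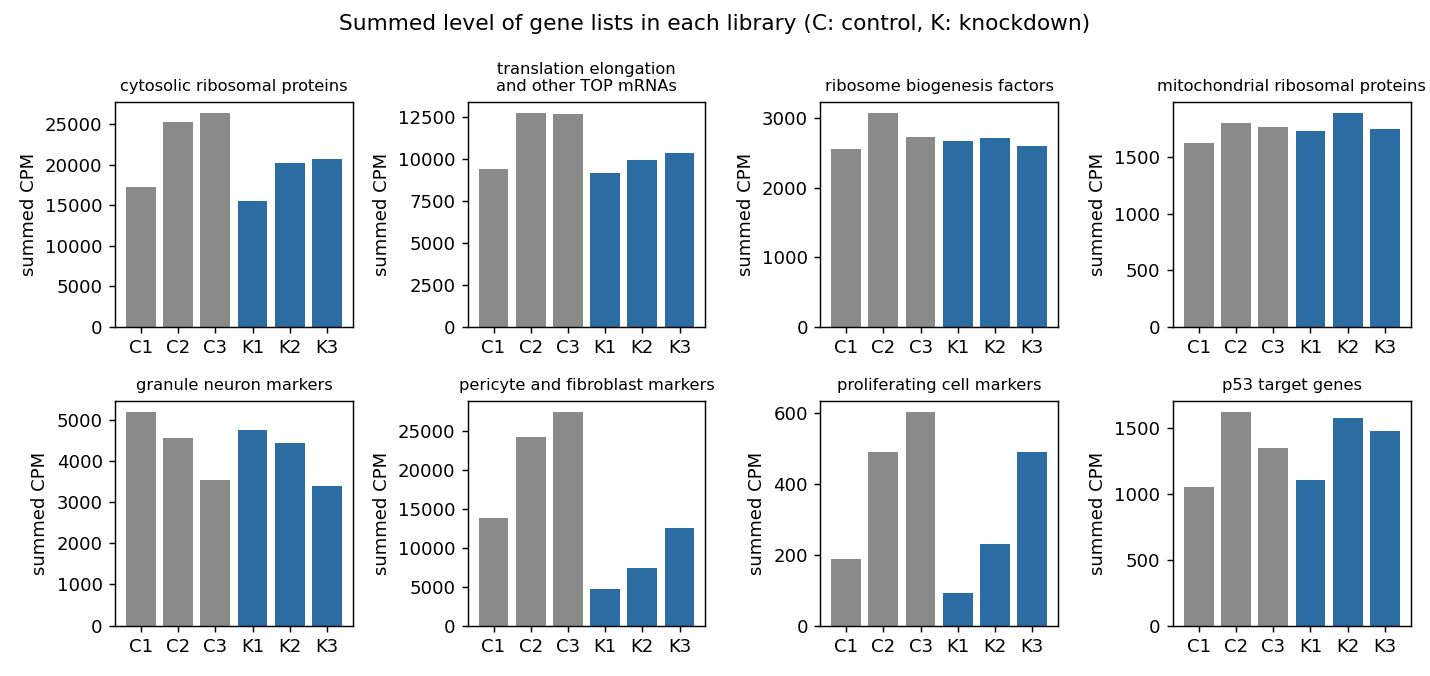
Summed CPM of the ribosomal protein genes and 7 other gene lists in each library (bars from 0, C for control and K for knockdown replicates 1 to 3). The ribosomal protein bars are lowest in replicate 1 and highest in replicate 3 of each arm, as are those of the pericyte and fibroblast and the proliferating cell markers and, among lists not drawn, the sum of the astrocyte and Bergmann glia markers. The granule neuron bars run the other way, highest in replicate 1 and lowest in replicate 3 of each arm. The sum of the oligodendrocyte lineage markers, not drawn, is lowest in replicate 2 of each arm. The mitochondrial ribosomal proteins, at 1625 to 1894 CPM in all libraries, vary far less.

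Markers of pericytes, fibroblasts and dividing cells were lower in the knockdown as well. Of 14 pericyte and fibroblast markers, 9 fell with the block and 0 rose, and their summed level was 13736 to 27444 CPM in the controls and 4686 to 12547 CPM in the knockdowns. It was lowest in replicate 1 of each arm (13736 and 4686 CPM), as the ribosomal protein sum was. Of 12 proliferating cell markers, 3 fell and 0 rose, at 190 to 605 CPM against 93.6 to 492 CPM, again lowest in replicate 1 of each arm. No marker of these lists was at 0 in all libraries.

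Most glial markers also had log2 fold changes below 0 with the block, and few passed the test. The microglia markers had a median of -2.00, with 9 of 10 below 0. Their summed level was 109, 43.8 and 89.7 CPM in the controls, against 9.86, 14.6 and 52.6 CPM in the knockdowns, lower in every pair, with at most 2 of the genes at 0 in a library. The 1 that fell was Tmem119 (-1.41, edgeR adjusted p = 0.0282), which made up 42.7 of the 43.8 CPM in control 2. All 10 oligodendrocyte lineage markers were below 0 (median -0.37, 2 fell), at sums of 1299, 204 and 1168 CPM against 975, 167 and 898 CPM, lower in every pair. All 10 astrocyte and Bergmann glia markers were below 0 (median -0.21, 1 fell), against 5 of 10 without the block. Their sums were 1226, 1588 and 3242 CPM against 686, 976 and 3390 CPM, lower in pairs 1 and 2 and lowest in replicate 1 of each arm. The pericyte and fibroblast markers had a median of -1.18 and the proliferating cell markers one of -0.73.

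The granule neuron markers moved in both directions, at sums of 3532 to 5196 CPM against 3392 to 4746 CPM. Of the 12, 2 rose with the block, the neuronal tubulin gene Tubb3 (1.02, edgeR adjusted p = 0.0345) and the transcription factor gene Barhl1 (1.63, adjusted p = 0.0335). The transcription factor gene Etv1 fell (-1.48, adjusted p = 0.0299). Slc17a7, which encodes a vesicular glutamate transporter, was at 403, 735 and 300 CPM in the controls, against 181, 228 and 212 CPM in the 3 knockdowns, with no overlap, and lay just outside the threshold (-1.11, edgeR adjusted p = 0.0562). The part of these cells, and of whatever set replicate 1 apart, in the level of the ribosomal protein genes was not tested.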

How the data were processed

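Stranded mRNA libraries were sequenced with 50 bp single-end reads, per the labels' protocols. The values the authors deposited are whole-number counts per gene in 1 table. The submitters' processing notes name Trimmomatic, HTSeq, TopHat2, DESeq2 and edgeR and the build mm9. Versions, settings and annotation were not given in the sources used here. Left out were the 5 tallies that name no gene (of all counts, 12.1% to 15.0% outside genes, 0.406% to 0.509% ambiguous and 16.0% to 19.3% with several alignments).

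Counts were fitted with edgeR 4.0.16 in R 4.3.3 (filterByExpr with a minimum count of 10 and a minimum total of 15, TMM, quasi-likelihood F test), which left 15731 genes, and p-values were adjusted over all of them by the Benjamini-Hochberg method at 0.05. Standard errors were obtained from each log2 fold change and the square root of its F. Log2 CPM values add 0.5 counts. Libraries of a group all differed beyond counting noise, with chi-square values of 182 to 397 per degree of freedom. Across genes, deviations from the group means correlated at 0.763, 0.717 and 0.689 for same-numbered libraries and at -0.548 to -0.177 for the others. Centring on the group means pushes the latter values below 0 when the former are above it, so they are not separate evidence of pairing. The pairing therefore comes from these data, not from the labels, and the blocked fit is given where it changes a call.

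Both fits were run on data simulated for this comparison, with replicate effects built in and the dispersions of the blocked fit. That setting favours the blocked fit, so the recovered counts cannot show which fit suits the real data. Without the block, 0 of 67 genes set to 1.5-fold, 2 of 67 set to 2-fold and 34 of 66 set to 4-fold were recovered. With the block these were 15, 47 and 62, with 14 false calls, and the simulation held 15588 genes.

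Members, lists, tests and the rule for named genes were chosen with earlier results of these data known. Named genes were paralogs, stalk proteins and other members fixed by name, the 5 highest and 5 lowest fold changes, the 4 highest and 4 lowest levels per kilobase, the 3 smallest p-values in each direction, called members, and up to 3 called genes per list in each direction. Other genes named as examples (Cdkn1a, Mdm2, Slc17a7, Lrsam1 and Gm33051) were chosen after their values were seen, and some genes are not reported here. Transcripts were those of GENCODE M21 (protein coding, APPRIS principal, best support level, then shortest), a choice also made after lengths were seen. Only names were matched between the mm9 counts and the GRCm38 annotation. The alternatives were RLE, upper-quartile and no factors, TMM without the ribosomal protein genes, other filters, DESeq2 1.42.0, limma-voom (limma 3.58.1), the replicate block and leaving out libraries or pairs.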

Additional observations from a re-analysis of the deposited data

How the results depend on the processing

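Without the block, 0 ribosomal protein genes passed the threshold in either direction under every alternative run. With the replicate block 7 fell. With the block this count was 11 under RLE factors (all 7 among them), 7 under upper-quartile factors (6 shared), 6 with library totals alone (Rps19 lost in both) and 8 with TMM factors computed without these genes. The blocked count was 2 without replicate 3 (Rpl12 and Rps12), 0 without replicate 1 and 0 without replicate 2. Over the whole table the blocked fit called 1256 genes, against 53 without replicate 2 and 0 without replicate 1. With library totals alone the blocked split over all genes moved from 850 lower and 406 higher to 553 lower and 723 higher, and the median of all genes was 0.09. The median over the ribosomal protein genes stayed below 0 under every alternative run, from -0.41 without control replicate 1 to -0.14 without knockdown replicate 1, and the difference in summed share from -0.548 to -0.124 points. The Rps27l share difference ranged from -1.26 to 0.183 points when 1 library was left out, turning positive without knockdown replicate 1, and that of Rpl22l1 from -6.72 to -2.84 points.

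Single genes with small differences turned sign, and the cause was not tested. With library totals alone the log2 fold change was 0.0198 for Fau, 0.0415 for Rpl38, 0.0586 for Rps21 and 0.0201 for Rps27l, and with the block added 0.0186 for Fau, 0.0432 for Rpl38 and 0.0423 for Rps21. With the block and without replicate 3 it was 0.0246 for Fau, 0.00874 for Rpl38, 0.0606 for Rps21 and -0.00306 for Rpl30, and without replicate 1 it was -0.0193 for Rpl22, 0.00454 for Rps21 and -0.0248 for Rps4y2. Rpl30 was at -0.0378 with limma-voom, -0.00984 with the block and RLE factors and -0.308 with the block and without replicate 2. When 1 library was left out, the lowest and highest values were -0.340 and 0.375 for Rpl30, -0.150 and 0.0455 for Rpl38, -0.320 and 0.00301 for Rplp2, -0.214 and 0.156 for Rps21, -0.310 and 0.220 for Rps27l, and -0.0486 and 0.128 for Rps4y2. Of 1273 values of named genes under alternatives, 1070 kept direction and side of the threshold, 173 newly passed it and 30 turned sign.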

Other observations

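Ribosomal protein paralogs that the name rule leaves out covered a wide range of levels. Rpl36al, a paralog of Rpl36a, was at 45.4, 62.8 and 60.9 CPM in the controls, against 43.0, 55.0 and 49.8 CPM in the knockdowns (-0.19 with the replicate block, edgeR adjusted p = 0.159). Rpl7l1, a nucleolar relative of Rpl7, was at 60.6, 73.8 and 64.6 CPM against 58.5, 64.8 and 58.2 CPM (-0.13, adjusted p = 0.245). Both were lower in the knockdown in every pair and neither passed the test. The relatives with known expression in testis or muscle were near 0: Rpl39l was at 0.0551 to 0.320 CPM in the controls and 0.0671 to 0.371 CPM in the knockdowns, Rpl3l was at most 0.0742 CPM, and Rpl10l was at 0.0112 CPM in knockdown 1 and at 0 in the other 5 libraries. These genes were chosen after their values were seen.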
